A study of Arabidopsis thaliana with 12 samples.

Results

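The genes described here are 8 genes of the fatty acid elongase of Arabidopsis thaliana, chosen by identifier from the 28642 genes of the deposited table. They are 5 genes of 3-ketoacyl-CoA synthases, KCS1, KCS2, KCS20, CER6 and KCS9, and 1 gene for each of the other enzymes of the cycle, KCR1, PAS2 and CER10. Wild-type seedlings were grown in liquid half-strength MS medium and treated at 14 days of age for 90 min. The control group received the non-ionic surfactant Pluronic F68 alone at 0.01%, and the 3 other groups received C18:0 CoA, C18:1 CoA or C16:0 CoA at 0.1% in the same surfactant. C18:0 and C16:0 are saturated chains of 18 and 16 carbons; C18:1 has 18 carbons and 1 double bond. Each group had 3 libraries, each from a pool of 80 whole seedlings, and the labels call the replicates biological. All groups share the surfactant, so no library shows seedlings without it. The labels give the concentration as a percentage only, so equal molar doses cannot be assumed.

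The elongase sits in the membrane of the endoplasmic reticulum and lengthens acyl-CoAs by adding carbons from malonyl-CoA in a cycle of 4 reactions. A 3-ketoacyl-CoA synthase condenses the acyl-CoA with malonyl-CoA and sets which chain lengths are made, after which a ketoreductase, a dehydratase and an enoyl reductase complete the round. Acyl-CoAs of 16 and 18 carbons are its starting substrates, and its very-long-chain products enter cuticular wax, suberin, sphingolipids and seed oil.

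In the deposited TAIR10 coordinates, KCS1 (AT1G01120) lies on the minus strand at chr1:57269-59167, KCS2 (AT1G04220) on the minus strand at chr1:1119699-1122526 and CER6 (AT1G68530) on the minus strand at chr1:25712588-25714807. KCS9 (AT2G16280) lies on the plus strand at chr2:7050944-7052897 and KCS20 (AT5G43760) on the plus strand at chr5:17585763-17588597. KCR1 (AT1G67730) is on the plus strand at chr1:25391460-25393610, PAS2 (AT5G10480) on the minus strand at chr5:3297804-3300151 and CER10 (AT3G55360) on the minus strand at chr3:20520930-20523014. RefSeq annotates 1 exon for KCS1 and KCS9, 2 for KCS2, KCS20 and CER6, 3 for KCR1, 4 for CER10 and 10 for PAS2.

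KCS2 and KCS20 are close copies that act redundantly in wax and root suberin, and their sequences bear on how well their reads can be told apart. Over 1554 aligned coding bases, 1305 were identical (84.0%), and the longest identical run was 53 bases, above the read length of 50 bases used for this check. The stretch of 90 coding bases around that run follows, 5′ to 3′ from the RefSeq TAIR10.1 assembly, with the 2 differing positions in capitals. KCS2 is read from the minus strand at chr1:1119994-1120083 and KCS20 from the plus strand at chr5:17588277-17588366.
KCS2: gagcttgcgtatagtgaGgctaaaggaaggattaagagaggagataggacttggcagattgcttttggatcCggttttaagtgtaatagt
KCS20: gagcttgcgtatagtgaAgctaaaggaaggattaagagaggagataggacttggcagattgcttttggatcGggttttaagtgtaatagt
Only 4 words of 50 bases were common to both transcripts, of 1995 in KCS2 and 2168 in KCS20, so exact matches of that length lay in this stretch alone. The aligner is not known, and sharing of reads aligned with mismatches was not checked.

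CER6, which makes the long precursors of shoot wax, was compared in the same way with its closest copy KCS5, because both stood high in some of the same libraries. Of 1479 aligned coding bases 1202 were identical (81.3%), with a longest identical run of 23 bases. The 90 coding bases around that run hold 17 differences, in capitals, with KCS5 from the minus strand at chr1:8940004-8940093 and CER6 from the minus strand at chr1:25714440-25714529.
KCS5: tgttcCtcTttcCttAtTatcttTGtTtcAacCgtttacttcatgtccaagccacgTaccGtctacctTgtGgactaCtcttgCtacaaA
CER6: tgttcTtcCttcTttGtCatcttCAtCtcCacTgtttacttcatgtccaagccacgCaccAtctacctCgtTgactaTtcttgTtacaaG
CER6 shared 0 words of 50 bases with any other annotated transcript, and the same held for KCS1, KCS9, KCR1, PAS2 and CER10. KCS2 differed from them in that 1165 of its 1995 words (58.4%) lay antisense to AT1G04247, which RefSeq annotates on the opposite strand at chr1:1120225-1122526. That gene had no line in the table. The libraries were made with a stranded kit, but whether counting used the strand is not given in the sources used here, so reads of KCS2 and of the antisense gene cannot be told apart.

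The 12 libraries held 348140 to 6126277 exon reads. The 3 shallowest, replicate 2 of C18:0 CoA, replicate 1 of C18:1 CoA and replicate 2 of C16:0 CoA, held at most 640605 exon reads, against at least 1303225 in the 9 others. A count of 3 reads corresponded to 0.476 to 8.85 CPM, the count scaled to the library's total, depending on the library. Markers of photosynthesis (5 of 5), shoot epidermis (4 of 4), root hair (4 of 4) and root endodermis (2 of 2) were detected, as the label of whole seedlings implies. Of 3 embryo and seed markers 2 were detected, on 93 reads in all, and the seed elongase gene FAE1 had 0 reads in all 12 libraries. The seed markers summed to 0.203 to 0.772 CPM in control and 1.61 to 27.1 CPM with C18:0 CoA, without overlap, as for 12.4% of all single genes tested. With C18:1 CoA and C16:0 CoA the sums were 0.0 to 5.90 and 0.0 to 2.25 CPM.

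Levels between genes were compared per length, as CPM per kb of exon. The deposited exon length of CER6, 2220 bases, was its whole deposited span, although RefSeq annotates 2 exons. Its level per length and its share of the family below may therefore be understated. CER6 stood first, with a median of 205 CPM per kb and a range of 139.7 to 284 over the 12 libraries. It was followed by KCR1, the ketoreductase gene, at a median of 89.4, by PAS2, the dehydratase gene, at 81.8, and by CER10, the enoyl reductase gene, at 72.2 CPM per kb. KCS20 followed at 53.8, KCS1 at 44.2, KCS9 at 30.4 and KCS2 at 9.75 CPM per kb. By these medians, the 3 genes of the later steps lay close together, below CER6 and above the other 4 synthases. In the shallow C18:1 CoA replicate 1, PAS2 at 48.3 CPM per kb lay below KCS20 at 64.1 and KCS1 at 49.7. CER6 was above KCR1 in 12 of 12 libraries, CER10 above KCS20 in 12 of 12, and KCS9 above KCS2 in 12 of 12. The 3 control libraries of KCR1 and PAS2, of PAS2 and CER10, and of KCS1 and KCS9 overlapped. Within libraries, KCR1 was above PAS2 in 9 of 12, PAS2 above CER10 in 10 of 12, KCS1 above KCS9 in 11 of 12 and KCS20 above KCS1 in 11 of 12, so these neighbours were ordered alike in most but not all libraries.

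Among the 21 annotated genes of 3-ketoacyl-CoA synthases, 15 had enough reads to be tested. The 5 studied here made up 57.2% ± 4.12 (SD, n = 3) of the summed per-length level of the family in the control group, 58.8% ± 2.54 with C18:0 CoA, 61.5% ± 3.76 with C18:1 CoA and 55.5% ± 2.26 with C16:0 CoA, each over 3 libraries. CER6 alone held 33.9% ± 5.35 (SD, n = 3) in the control group. KCS10, a synthase known from epidermal and cuticle development, was second in the family with a median of 82.1 CPM per kb, and KCS12, next after KCS20, had 48.3 CPM per kb. KCS13 and KCS14 share 99.0% of their aligned coding bases, so the low value of KCS13 is uncertain.

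**Figure D1:**
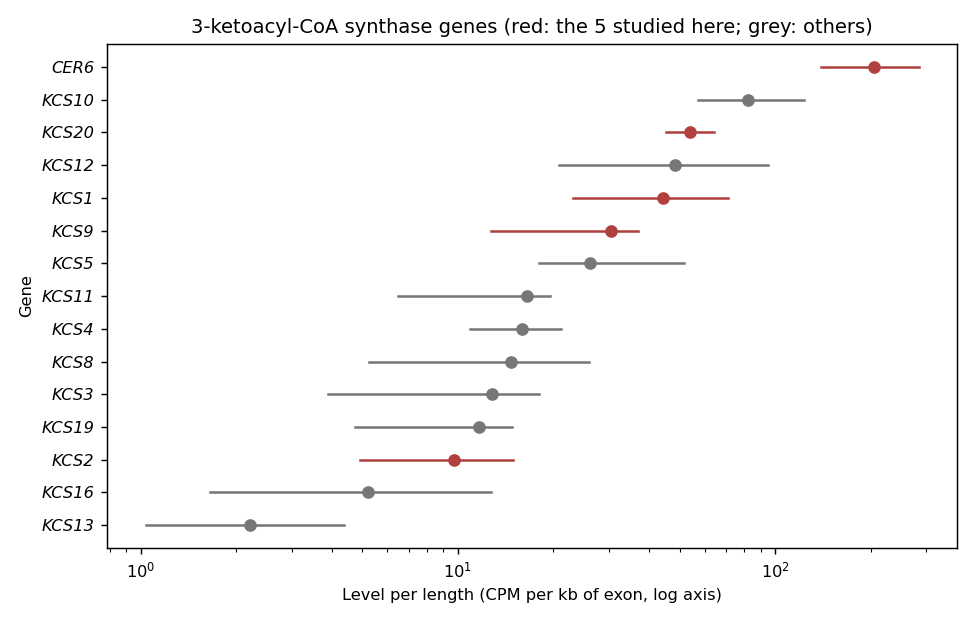
Level per length (CPM per kb of exon, log axis) of the 15 tested 3-ketoacyl-CoA synthase genes; points are medians and lines the range over 12 libraries, with the 5 genes studied here in red. CER6 lies highest with a median of 205 CPM per kb, and KCS2, with 9.75, is the third lowest.

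After 90 min, none of the 8 genes passed the test in any of the 3 acyl-CoA groups against the control (edgeR quasi-likelihood test, Benjamini-Hochberg adjusted over 17036 genes, 0 of 8 in each direction). The background was the same, since 0.0% of the genes tested passed in each of these comparisons. At an unadjusted p under 0.05 the count was also 0 of 8 in all 3, where 1.88% of all genes tested lay under it with C18:0 CoA, 1.99% with C18:1 CoA and 4.03% with C16:0 CoA. DESeq2 and limma voom also called 0 of the 8. Libraries did not overlap with the control for 0 of 8 genes with C18:0 CoA, 0 of 8 with C18:1 CoA and 2 of 8 with C16:0 CoA, KCS9 and PAS2, where the shares over all genes were 12.4%, 9.28% and 11.4%. For the mean of the 3 acyl-CoAs against control, log2 values ran from -0.21 (KCS2) to 0.12 (CER10), 0 of 8 passed adjusted (background 0.0%) or had an unadjusted p under 0.05 (2.49%), and 0 of 8 did not overlap (0.91%). The 95% intervals of all 8 log2 fold changes included 0 in each comparison. They ran from -0.98 to 0.78 over the 8 genes with C18:0 CoA, from -1.01 to 0.79 with C18:1 CoA and from -1.02 to 0.70 with C16:0 CoA. A doubling lay outside the interval of each gene in these 3 comparisons, and a fall to the reciprocal level (log2 of -1) lay outside it for each gene but KCS2 with C18:1 CoA and C16:0 CoA. The 3 comparisons share the control libraries, and whole seedlings do not let a change in the number of expressing cells be told apart from a change in RNA per cell. The i7 index, a barcode of the library, was the same in all control and C18:0 CoA libraries and different in all C16:0 CoA libraries. A difference of C16:0 CoA from either group can therefore not be told apart from a difference of index.

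**Figure D2:**
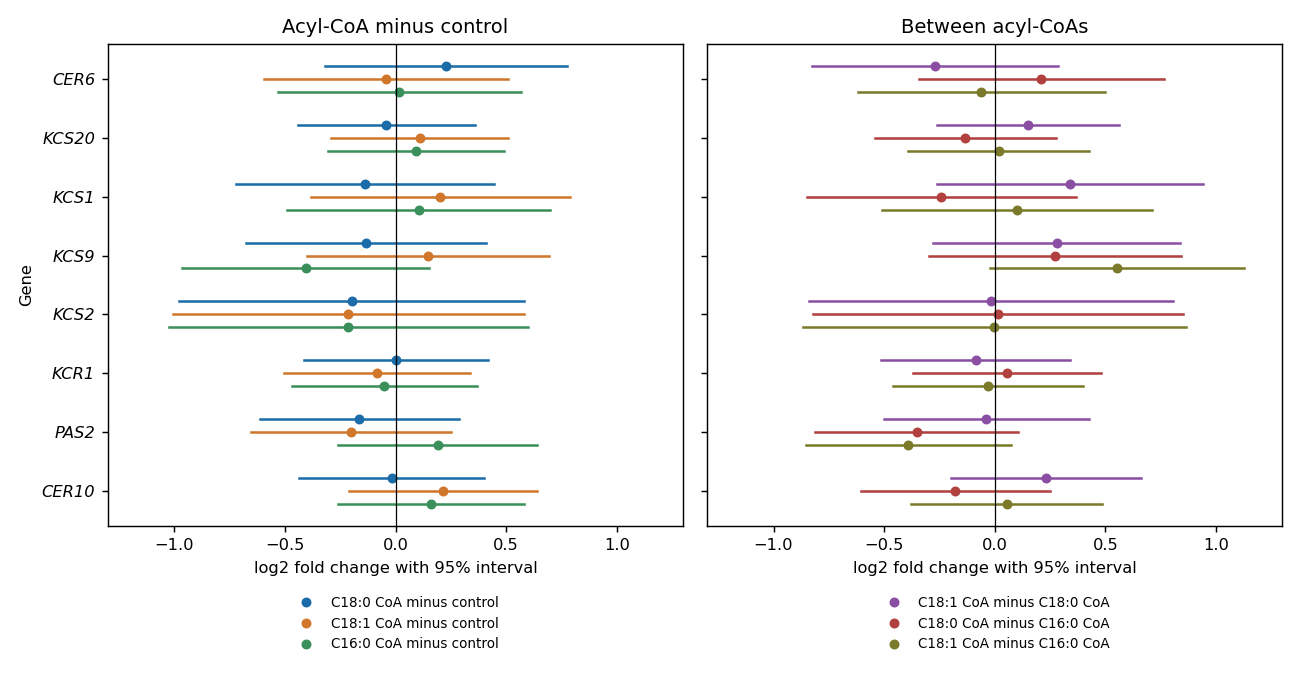
Log2 fold changes (x axis) of the 8 genes (y axis) with their 95% intervals from the edgeR fit, for each acyl-CoA against the control (left) and between acyl-CoAs (right), 3 libraries a group. Every interval crosses 0; the point farthest from 0 is KCS9 between C18:1 CoA and C16:0 CoA, at 0.55.

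CER6 had 490.2, 349 and 479 CPM in control replicates 1 to 3. With C18:0 CoA it had 433, 619 and 496 CPM, with C18:1 CoA 596, 310.1 and 392 CPM, and with C16:0 CoA 377, 630.3 and 336 CPM. The groups overlapped, and in each acyl-CoA group the highest library was its shallowest one. The log2 fold change against control was 0.23 ± 0.26 (SE) with C18:0 CoA, -0.04 ± 0.26 with C18:1 CoA and 0.02 ± 0.26 with C16:0 CoA. Without the 3 shallowest libraries, these became 0.08, -0.33 and -0.30, and the value with C16:0 CoA changed sign. In the 3 shallowest libraries the counting intervals of CER6 began at 556, 517 and 566 CPM, all above the 496 CPM of the highest of the 9 deeper libraries. The summed level of 4 shoot epidermis markers was also above that of all 9 deeper libraries in these 3, at 840.0, 823 and 1010.3 CPM against 508 to 674 CPM. The other marker lists did not all move alike. Photosynthesis markers were above the deeper libraries in 1 of these 3, endodermis markers below them in 2 and root hair markers below them in 1. The part of the markers in the CER6 values was not tested.

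KCS1, a synthase with a broad range of substrates that acts in wax formation, had 87.1, 86.0 and 58.7 CPM in the control libraries. It had 77.7, 43.8 and 83.6 CPM with C18:0 CoA, 94.4, 93.2 and 84.3 CPM with C18:1 CoA, and 67.96, 135 and 61.5 CPM with C16:0 CoA. The C18:1 CoA libraries were the most even, and the control libraries overlapped with each group. The log2 fold changes were -0.14 ± 0.28 (SE), 0.20 ± 0.28 and 0.10 ± 0.28 in that order. The value with C16:0 CoA rested on replicate 2, whose counting interval of 106 to 169 CPM lay above the deeper libraries, and was -0.29 without it.

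KCS9, which acts on intermediate very-long chains, had 63.7, 57.4 and 61.0 CPM in the control libraries. It had 67.8, 31.6 and 57.7 CPM with C18:0 CoA, 62.0, 72.5 and 64.6 CPM with C18:1 CoA, and 54.9, 24.9 and 50.2 CPM with C16:0 CoA. All 3 C16:0 CoA libraries were below all 3 control libraries, where 11.4% of all genes tested had groups without overlap in either direction. The log2 fold change with C16:0 CoA was -0.41 ± 0.27 (SE), with an unadjusted p of 0.144 and an adjusted p of 0.988 in the edgeR test. Replicate 2 of C16:0 CoA held 14 reads of KCS9, with a counting interval of 13.6 to 41.7 CPM, and without that library the value was -0.21. With the other acyl-CoAs the values were -0.13 ± 0.26 (C18:0) and 0.15 ± 0.26 (C18:1). The C18:0 CoA value turned to 0.05 without the shallow replicate 2, which held 18 reads, and the C18:1 CoA value was 0.07 without replicate 2.

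KCS20 varied least of the 5 synthases, from 83.6 CPM in C18:0 CoA replicate 1 to 118 CPM in C18:1 CoA replicate 1. Its 3 control libraries had 92.9, 104 and 95.8 CPM, and its log2 fold changes were -0.04, 0.11 and 0.09 with C18:0, C18:1 and C16:0 CoA, each ± 0.19 (SE). Its copy KCS2 was far lower, with 20.9, 21.7 and 14.7 CPM in the control libraries, 19.5, 8.77 and 18.6 CPM with C18:0 CoA, 11.8, 26.5 and 9.37 CPM with C18:1 CoA and 16.2, 14.2 and 19.2 CPM with C16:0 CoA. The KCS2 groups overlapped, and its counts fell to 4 reads in the shallowest library. Its log2 fold changes were -0.20 ± 0.37 (SE), -0.21 ± 0.38 and -0.21 ± 0.39, the widest errors of the 8 genes. With C18:1 CoA the value was -0.99 without replicate 2 and 0.19 without replicate 3.

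**Figure D3:**
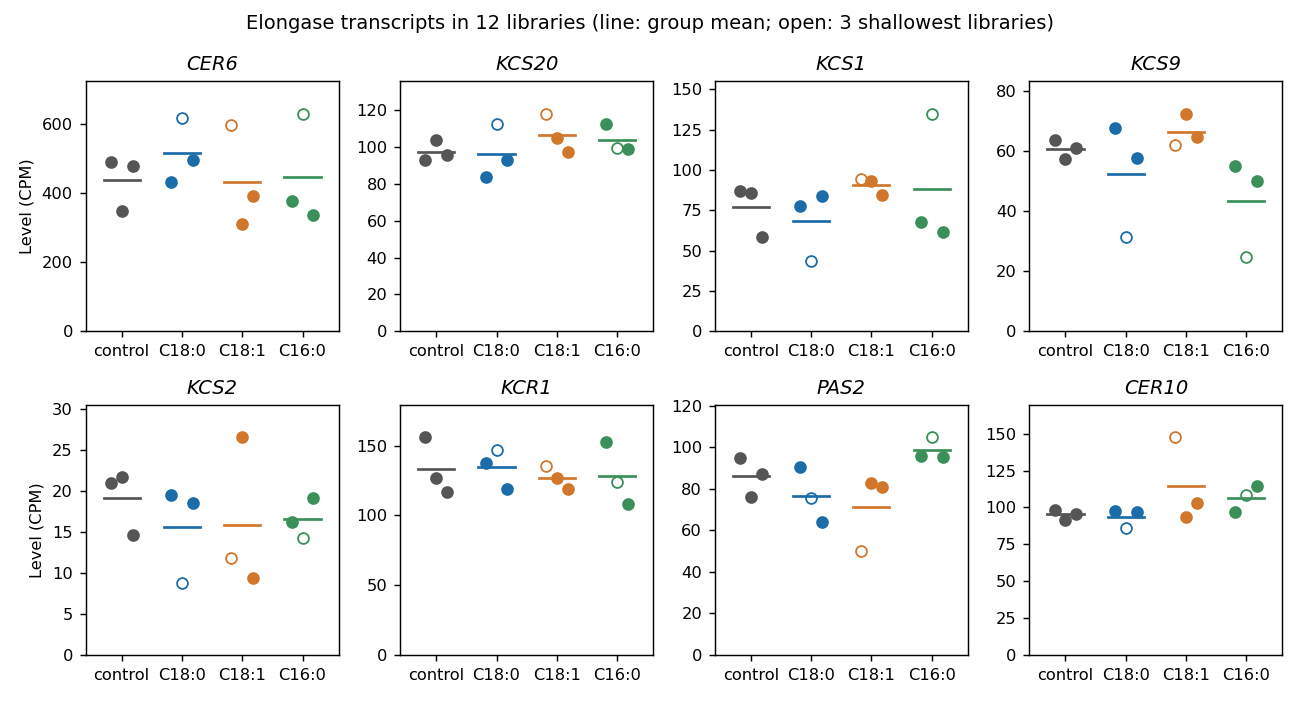
Level (CPM on TMM-scaled library sizes, y axis from 0) of each of the 8 genes in the 12 libraries by group; points are libraries, lines group means, and open points the 3 shallowest libraries. CER6 is highest in the open points (596 to 630.3 CPM), while for KCR1 and for KCS20 the 4 groups overlap.

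KCR1, the main ketoreductase of the elongase in this species, had 156, 127 and 117 CPM in the control libraries, 138, 147 and 119 CPM with C18:0 CoA, 136, 127 and 119 CPM with C18:1 CoA, and 153, 124 and 108 CPM with C16:0 CoA. The 4 groups overlapped almost fully, and the log2 fold changes were 0.00, -0.08 and -0.05, each ± 0.20 (SE). CER10 had 98.6, 91.5 and 95.8 CPM in the control libraries and 97.4, 85.9 and 96.9 CPM with C18:0 CoA. With C18:1 CoA it had 148, 93.8 and 103 CPM, and with C16:0 CoA 97.2, 108 and 115 CPM. The highest library was the shallow C18:1 CoA one, whose counting interval of 109.5 to 195 CPM reached down into the deeper libraries, and the log2 fold change with C18:1 CoA was 0.21 ± 0.20 (SE), or 0.05 without that library. With C18:0 CoA and C16:0 CoA the values for CER10 were -0.02 and 0.16, each ± 0.20 (SE).

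PAS2 had 94.99, 76.1 and 87.3 CPM in the control libraries, 90.3, 75.4 and 63.8 CPM with C18:0 CoA, 50.2, 82.7 and 80.8 CPM with C18:1 CoA, and 95.9, 105 and 95.3 CPM with C16:0 CoA. The C16:0 CoA libraries were the 3 highest of all 12, and they did not overlap with the control, the C18:0 CoA or the C18:1 CoA libraries. As for KCS9, the share of all genes without overlap between C16:0 CoA and control was 11.4%. The log2 fold changes against control were -0.16 ± 0.21 (SE) with C18:0 CoA, -0.20 ± 0.22 with C18:1 CoA and 0.19 ± 0.21 with C16:0 CoA. Each rested in part on 1 library: the value was -0.04 without C18:0 CoA replicate 3, -0.08 without the shallow C18:1 CoA replicate 1, which held 17 reads of PAS2, and 0.09 with C16:0 CoA without control replicate 2. None passed the edgeR test, and the adjusted p with C16:0 CoA was 0.988. With the i7 index as a covariate, the C16:0 CoA value of PAS2 against control was 0.0012. That fit separates index from C16:0 CoA only through C18:1 CoA replicate 3, and the part of the index was not tested. The C16:0 CoA value of KCS9 was -0.47 to -0.21 over the 9 alternatives that left out no single library, this fit included.

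The 3 acyl-CoAs were also compared with each other, in 3 pairs at the same percentage and time, which need not be equal molar doses. C18:1 and C18:0 differ by the double bond, C18:0 and C16:0 by chain length, and C18:1 and C16:0 by both. None of the 8 genes passed the edgeR test in any pair (background 0.0% in each), and all 8 intervals included 0. For the double bond, the log2 differences of C18:1 minus C18:0 ran from -0.27 (CER6) to 0.34 (KCS1), with intervals within -0.84 to 0.94. For chain length, C18:0 minus C16:0 ran from -0.35 (PAS2) to 0.27 (KCS9), with intervals within -0.85 to 0.85. All libraries of this pair also differ by group in the i7 index, so chain length cannot be told apart from index. For C18:1 minus C16:0, KCS9 had the largest value at 0.55 ± 0.27 (SE), with an interval of -0.02 to 1.13 and an unadjusted p of 0.0587, and PAS2 the lowest at -0.39 ± 0.22 (SE), with an unadjusted p of 0.0931; both had an adjusted p of 1.00. The KCS9 value was 0.36 without C16:0 CoA replicate 2 and 0.38 without the 3 shallowest libraries, below that of KCS1, and the PAS2 value was -0.25 without C18:1 CoA replicate 1. The PAS2 difference of C18:0 minus C16:0 was -0.21 without C18:0 CoA replicate 3, and the KCS1 difference of C18:1 minus C18:0 was 0.16 without C18:0 CoA replicate 2. Libraries did not overlap for KCS1 in the first pair, for PAS2 in the second, and for KCS9 and PAS2 in the third, where the shares over all genes were 9.89%, 7.81% and 8.09%. At an unadjusted p under 0.05 the count was 0 of 8 in each pair, where the shares over all genes were 2.64%, 2.11% and 2.84%. Without the 3 shallowest libraries it was 1 of 8 in each pair, CER6 in the first and the second and KCS1 in the third (0.45, unadjusted p of 0.0337, adjusted 1.00), where the shares over all genes were 6.52%, 4.54% and 3.68%. The widest upper bound, for KCS9 in the third pair, was 2.18-fold, so the intervals do not show that the acyl-CoAs act alike.

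The authors' deposited table holds FDR-corrected p-values of Baggerley's test, which compares proportions of reads, for the same 6 comparisons. In the authors' deposited table, CER6 was the single one of the 8 genes under 0.05, with a fold of -1.25 and an FDR-corrected p of 1.75e-16 for C18:1 against C18:0, and a fold of -1.21 and 3.38e-08 for C16:0 against C18:0. The share of all genes under 0.05 in the authors' deposited table was 3.27% and 1.21% in these comparisons. The edgeR fit gave unadjusted p-values of 0.321 and 0.436 for CER6 in the same pairs, and its libraries overlapped in both. Without the 3 shallowest libraries the edgeR values of CER6 were larger and in the direction of the authors' deposited table, at -0.41 for C18:1 minus C18:0 (unadjusted p of 0.0358, adjusted 0.757) and 0.38 for C18:0 minus C16:0 (unadjusted p of 0.0494, adjusted 0.9748). In the authors' deposited table, 0 of the 8 genes were under 0.05 against the control.

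**Figure D4:**
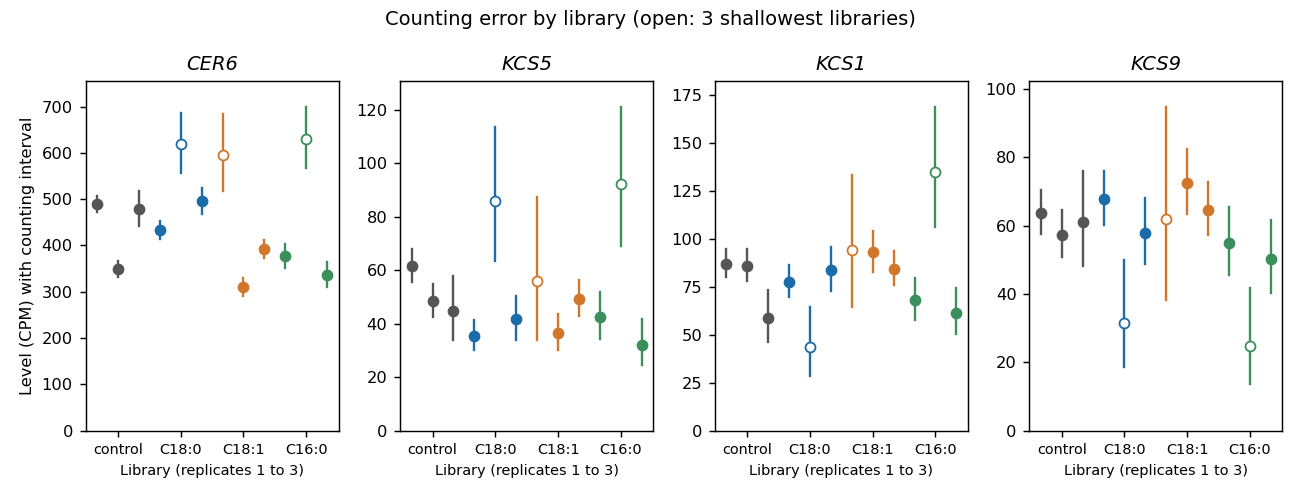
Level (CPM, y axis from 0) of CER6, KCS5, KCS1 and KCS9 in each of the 12 libraries with exact 95% Poisson intervals, which cover counting error only; open points are the 3 shallowest libraries. CER6 lies above 496 CPM in all 3 open points, KCS5 is highest in 2 of them (85.9 and 92.3 CPM), and KCS9 lowest in 2 (31.6 and 24.9 CPM).

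The other genes of the pathway were read by lists, of which 0 members passed the edgeR test in either direction in any comparison. Of the 16 other synthases 10 were tested, with a median log2 fold change of 0.00 with C18:0 CoA, -0.18 with C18:1 CoA and -0.06 with C16:0 CoA, where the medians over all genes were 0.00, 0.00 and 0.00. For the 8 genes described here the medians were -0.09, 0.03 and 0.05. KCS8 had 15.0 to 25.2 CPM in control and 28.5 to 43.8 CPM in C18:0 CoA libraries, without overlap (12.4% of all genes), and a log2 fold change of 0.72 ± 0.30 (SE) with an unadjusted p of 0.0276 (under 0.05 for 1.88% of all genes) and an adjusted p of 1.00. It shares 81 words of 50 bases with AT2G15120, so its reads are less certain. KCS12 had -0.63 ± 0.31 (SE) with C18:1 CoA. Between C18:1 and C16:0 CoA it had -1.03 ± 0.32, with an unadjusted p of 0.00423 (under 0.05 for 2.84% of all genes) and an adjusted p of 1.00. The highest KCS12 library was again the shallow C16:0 CoA one, at 183 CPM. For C18:1 minus C18:0, KCS8 and KCS12 were lower at an unadjusted p under 0.05 in the edgeR test, as were or rose 2.64% of all genes. KCS10 had a log2 fold change of -0.31 with C18:0 CoA, and KCS4 -0.28 with C18:1 CoA.

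Of 6 other components and partners of the elongase 4 were tested, with medians of -0.25, -0.19 and -0.06 in the same order. PTPLA, a second dehydratase-like gene, had -0.46 ± 0.33 (SE) with C18:0 CoA, and PAS1, an immunophilin that binds elongase subunits, -0.33 ± 0.25 with C16:0 CoA. CER26 had -0.24 ± 0.26 with C18:1 CoA and CER2 0.25 ± 0.34 with C16:0 CoA; both encode acyltransferase-like proteins that work with CER6 on the longest chains. ACC1, the cytosolic acetyl-CoA carboxylase that supplies malonyl-CoA, had 153 to 204 CPM in control libraries and 46.2 to 159 CPM with C16:0 CoA, the lowest again in the shallow library. Its log2 fold changes were -0.34 ± 0.30 (SE), -0.13 ± 0.30 and -0.50 ± 0.30. The 2 tested ELO-like genes of 4, AT3G06460 and AT3G06470, had -0.41 ± 0.65 (C18:0) and -0.23 ± 0.48 (C18:1).

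Among genes that use the products, 0 passed the test. Of 15 wax and cutin genes 12 were tested, with medians of -0.18, -0.05 and -0.08. CER1, of alkane formation, had -1.25 ± 0.52 (SE) with C18:1 CoA at an unadjusted p of 0.0271 and an adjusted p of 1.00, and it had 0 reads in the shallow C18:1 CoA library. CYP86A4 had -1.14 ± 0.62, CER3 -0.44 ± 0.27 and GPAT8 0.50 ± 0.35 with C16:0 CoA. All 7 suberin genes were tested, with medians of -0.13, -0.36 and -0.37, and 0 of the 7 log2 values were positive with C16:0 CoA, where 8507 of all 17036 genes tested were. ASFT, a feruloyl transferase of suberin, had -0.82 ± 0.38 (SE) there, at an unadjusted p of 0.0424, and FAR5 -0.70 ± 0.53; with C18:1 CoA GPAT5 had -0.72 ± 0.57 and CYP86A1 -0.40 ± 0.34. Root hair markers, 4 of 4 detected, summed to 151 to 212 CPM in control libraries. They summed to 111 to 138 CPM with C16:0 CoA and 107 to 114 CPM with C18:1 CoA. Neither overlapped with the control, as for 11.4% and 9.28% of all single genes tested. With C18:0 CoA they summed to 103 to 155 CPM, which overlapped with the control. Endodermis markers summed to 83.4 to 134 CPM in control, 64.9 to 96.0 CPM with C18:1 CoA and 21.3 to 117 CPM with C16:0 CoA. The lowest endodermis value with each of these acyl-CoAs came from its shallow library, and the other libraries lay within the control range. The part of both marker lists in the suberin values was not tested.

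All 8 tested sphingolipid genes had medians near 0 (-0.05, -0.03 and -0.10), with LCB2a at -0.31 ± 0.25 (SE), LOH1 at -0.28 ± 0.27, FAH2 at 0.25 ± 0.30 and FAH1 at -0.19 ± 0.24 with C16:0 CoA. Of 10 regulators of wax genes 7 were tested, with medians of 0.13, 0.07 and 0.12. MYB96, an activator of wax genes including synthases, had 18.5 to 22.8 CPM in control and 28.8 to 42.3 CPM in C16:0 CoA libraries, without overlap, as did 11.4% of all genes tested. Its log2 fold change was 0.73 ± 0.32 (SE), with an unadjusted p of 0.0369, under 0.05 as for 4.03% of all genes, and an adjusted p of 0.988. MYB94, its close relative, had 0.62 ± 0.44 with C18:1 CoA, CER9 -0.24 ± 0.21 and the repressor DEWAX 0.23 ± 0.23 with C18:0 CoA.

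Correlations between the 8 genes were of both signs. Over the 28 pairs of genes, Pearson correlations of log2 CPM ran from -0.59 to 0.43 with a median of -0.02, and from -0.61 to 0.60 in the 9 deeper libraries. The 3 shallow libraries set some of them, since CER6 and KCS9 went from -0.59 to 0.06 and KCS1 and KCS9 from -0.01 to 0.60 without these libraries; all pairs share libraries and depth, and the values are descriptive. The mean centred profile of the 8 was most like those of AT5G23280 (Pearson r of 0.90), BCAT4 (0.87) and CRK1 (0.85) over the 12 libraries, among 10125 genes compared. These genes were picked for the highest r, so high values follow from the choice and are no evidence of a link. The profile itself varied little, with an SD of 0.10 log2 units. BCAT4 fell to 1.75 CPM, a level of fewer than 3 reads in a shallow library. Some libraries shared a sequencing lane, which the labels name. In lane 1, C18:1 CoA replicate 3 minus control replicate 1 gave log2 differences of -1.10 to 0.07 over the 8 genes. In lane 2, C16:0 CoA replicate 1 minus control replicate 2 gave -0.41 to 0.33, and in lane 3, C16:0 CoA replicate 2 minus control replicate 3 gave -1.27 to 1.19. In lane 4, C18:0 CoA replicate 1 minus C16:0 CoA replicate 3 gave -0.24 to 0.43. The lane 3 pair includes a shallow library, and the median absolute difference over all genes was 0.70 there against 0.21, 0.24 and 0.24 in lanes 1, 2 and 4. Each lane held 1 library of a group, so these values have no test. The libraries of each pair also carried different i7 indices, so treatment cannot be told apart from index in these differences.

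Reads in introns were few. They made up 4.14% of the gene reads of KCS2, 3.74% of those of PAS2, 1.499% of KCS20, 1.24% of KCR1, 0.78% of CER10 and 0.059% of CER6, against 1.75% to 2.69% over all genes by library. KCS1 and KCS9 are annotated with 1 exon and had 0 intron reads. The deposited exon length of CER6, 2220 bases, was its whole deposited span, although RefSeq annotates 2 exons. Any intron within that span was counted as exon, so the share of CER6 is not comparable with the others.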

How the data were processed

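Stranded poly(A) libraries of 12 samples were sequenced as read pairs, per the labels' protocols. The deposited table gives read counts per gene for exons, introns and whole genes, per the file headers, with reads mapped to TAIR10, per the submitters' processing notes. The aligner and the use of strand in counting are not given in the sources used here. Total and unique exon reads were equal in all cells (0 differed). FDR-corrected p-values and a weighted-proportions fold, a score with a sign, were deposited by the authors, per the file headers.

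Exon counts of all 12 libraries were fitted in edgeR 4.0.16 (R 4.3.3; limma 3.58.1; DESeq2 1.42.0 as an alternative) with 1 mean for each group, scaled by TMM and filtered by filterByExpr, which kept 17036 genes including all 8 described. Tests were two-sided quasi-likelihood tests, adjusted over all genes at 0.05; SE is the log2 fold change divided by the root of F. CPM uses TMM-scaled library sizes. In simulated C18:1 CoA libraries with 16768 genes, 31.0% of 100 changes of log2 1 and 84.7% of 98 changes of log2 2 were called. Those changes were put in randomly drawn genes of any level, many at once, which eases the adjusted threshold. The shares are therefore not the power for any of the 8 genes. Of the members of each list, up to 4 with the smallest unadjusted p against control are named; KCS5 and AT1G04247 were chosen after values were seen. The members and lists were chosen with earlier results of these data known. Identifiers (28009 matched), structures and sequences came from RefSeq TAIR10.1, whose gene spans held 98.6% of the deposited spans. The labels give no cultures for the replicates, so p-values measure the spread between these samples. Counting intervals are exact Poisson intervals at 95%.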

Additional observations from a re-analysis of the deposited data

How the results depend on the processing

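None of the 8 genes passed the test under any of the 21 alternatives; the smallest adjusted p was 0.654. Over all genes the count called, 0 as reported, changed with C18:1 CoA against control to 1 without the filter on low counts, 2 with DESeq2, 1 with limma voom, 1 with the length trend removed, 5 without the 3 shallowest libraries and 0 to 1 leaving out 1 library. With C16:0 CoA against control it was 2 without the 3 shallowest, and between C18:1 and C16:0 CoA 1 without the filter, 1 with DESeq2, 1 without the 3 shallowest and 0 to 1 leaving out 1 library; the cause was not tested. Replicate numbers were checked for pairing. Of 18 same-numbered pairs 5 correlated over 0.1 (range -0.35 to 0.39), and 5 of 12 libraries correlated best with their own number. The 3 shallowest libraries correlated with each other at 0.21, 0.31 and 0.32, with and without a shared number. The check cannot tell depth from pairing, so it does not exclude pairing. The fit with the replicate block called 0 genes in every comparison.

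Of the 56 member log2 values 29 changed sign under some alternative, all with values of at most 0.24 in size as reported. This was so for 49 of 504 values under the 9 alternatives that left out no single library, and for 56 of 384 when 1 library was left out; the cause was not tested. Without the filter on low counts, the values of other sign were KCR1 -0.00908 for C18:0 against control, CER6 -0.00417 for C16:0 against control, KCS2 0.0106 for C18:1 minus C16:0. With DESeq2, the values of other sign were KCR1 -0.00179 for C18:0 against control, KCS2 0.00373 for C18:1 minus C18:0, KCS2 -0.0156 for C18:0 minus C16:0, KCS20 -0.000972 for C18:1 minus C16:0. With limma voom, the values of other sign were KCR1 -0.0202 for C18:0 against control, KCS1 -0.0837 and CER6 -0.0509 for C16:0 against control, KCS1 -0.00496 for the mean of the acyl-CoAs, PAS2 0.0231 for C18:1 minus C18:0, KCS20 -0.0214 and CER10 -0.0278 for C18:1 minus C16:0. With the replicate block, the values of other sign were KCR1 0.000499 for C18:1 minus C16:0. With the i7 index as a covariate, the values of other sign were KCS2 0.19 and CER6 0.0198 for C18:1 against control, KCS2 1.04 and KCR1 0.0813 for C16:0 against control, KCS2 0.34 and KCR1 0.0170 for the mean of the acyl-CoAs, KCS2 0.39 for C18:1 minus C18:0, KCS2 -1.24 and KCR1 -0.0772 for C18:0 minus C16:0, KCS20 -0.10 and CER10 -0.0440 for C18:1 minus C16:0. With the length trend removed, the values of other sign were KCR1 -0.0256 for C18:0 against control, CER6 0.0350 for C18:1 against control, PAS2 0.0618 for C18:1 minus C18:0, KCS2 -0.00296 for C18:0 minus C16:0, KCS20 -0.0344 for C18:1 minus C16:0. Without the 3 shallowest libraries, the values of other sign were KCS1 0.0243, KCS9 0.0540, KCR1 -0.0608 and CER10 0.0280 for C18:0 against control, KCS1 -0.29 and CER6 -0.30 for C16:0 against control, KCS1 -0.0349, CER6 -0.18 and KCS9 0.00505 for the mean of the acyl-CoAs, PAS2 0.0679 for C18:1 minus C18:0, KCS1 0.31 and KCR1 -0.0244 for C18:0 minus C16:0, KCS20 -0.0701 and CER10 -0.10 for C18:1 minus C16:0. With whole-gene reads, the values of other sign were KCR1 -0.00154 for C18:0 against control, KCS2 0.00492 for C18:1 minus C18:0, KCS2 -0.12 for C18:0 minus C16:0, KCS20 -0.00448 for C18:1 minus C16:0. Leaving out 1 library gave these ranges across 0. For C18:0 against control they were CER10 -0.0502 to 0.0247, KCS20 -0.15 to 0.0548, KCR1 -0.0792 to 0.14, KCS1 -0.29 to 0.0384 and KCS9 -0.36 to 0.0479. For C18:1 against control they were CER6 -0.32 to 0.15, KCR1 -0.17 to 0.0490 and KCS2 -0.99 to 0.19. For C16:0 against control they were KCR1 -0.22 to 0.0788, CER6 -0.31 to 0.17 and KCS1 -0.29 to 0.30. For the mean of the acyl-CoAs they were KCR1 -0.13 to 0.0881, PAS2 -0.15 to 0.0220, CER6 -0.0808 to 0.15 and KCS1 -0.0908 to 0.15. For C18:1 minus C18:0 they were KCS2 -0.79 to 0.39 and PAS2 -0.17 to 0.12. For C18:0 minus C16:0 they were KCS2 -0.15 to 0.18, KCS1 -0.44 to 0.16 and KCR1 -0.0488 to 0.22. For C18:1 minus C16:0 they were KCS2 -0.77 to 0.40, KCS20 -0.0308 to 0.0894, CER10 -0.10 to 0.19, CER6 -0.33 to 0.25, KCR1 -0.14 to 0.13 and KCS1 -0.0946 to 0.47. All control and C18:0 CoA libraries carry the first i7 index and all C16:0 CoA libraries the second. Index and treatment therefore coincide when C16:0 CoA is compared with either of these groups. The fit with the index as a covariate separates them only through C18:1 CoA replicate 3, the only library of its group with the second index. Depth limits KCS2 most (4 to 132 reads).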
